A study of Homo sapiens with 26 samples.

Results

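Transcripts of 10 genes that act in, or are read out from, mitogen-activated protein kinase (MAPK) signalling were followed in A549 cells over 72 h with transforming growth factor beta 1 (TGF-beta 1). The genes were the dual-specificity phosphatases DUSP1, DUSP4, DUSP5 and DUSP6, the Sprouty genes SPRY2 and SPRY4, the early growth response factors EGR1, EGR2 and EGR3, and the immediate early gene IER3. All probe sets whose gene symbol in the deposited table equalled one of these names were taken, which gave 18 of 54675 probe sets and 10 of 19539 genes. A549 is an established human lung adenocarcinoma line. Per the labels, every sample had 24 h without serum. The treated groups then had porcine TGF-beta 1 at 5 ng/mL for one of 8 times, namely 0.5, 1 and 2 h, then 4 and 8 h, and at last 16, 24 and 72 h, and the untreated group, labelled as time 0, had none. Each group had 3 arrays from 3 repeats of the experiment, except 2 h with 2 arrays, because RNA of the third repeat was poor. No untreated cells kept for the later times are among the samples, so time in culture and treatment cannot be told apart.

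In the extracellular signal-regulated kinase (ERK) branch of MAPK signalling, growth factor receptors act through GRB2, SOS1, RAS, RAF and MEK on ERK. ERK switches on immediate early genes such as the EGR factors and IER3 through ternary complex factors and serum response factor, which bind a DNA motif known as the CArG box. It also switches on its own inhibitors: the DUSP phosphatases take phosphate off the kinases, and Sprouty proteins damp signalling between receptor and RAF. In epithelial cells TGF-beta is known to act through ERK, JNK and p38 beside the SMAD proteins.

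The members did not move as one group. EGR2 rose from 16 h on, to 14.8-fold at 72 h. IER3 rose at every time, and SPRY2 rose from 0.5 to 24 h and was back at its untreated level at 72 h. DUSP5 fell from 1 h on, most at 2 h. DUSP4 was lower at 2 h and from 8 h on by its probe set 204015_s_at, and at 24 h alone by 204014_at. DUSP6 was lower at 72 h, while DUSP1 was higher from 16 h on and EGR1 at 4, 8, 16 and 72 h, each on some of its probe sets and not on all.

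**Figure D1:**
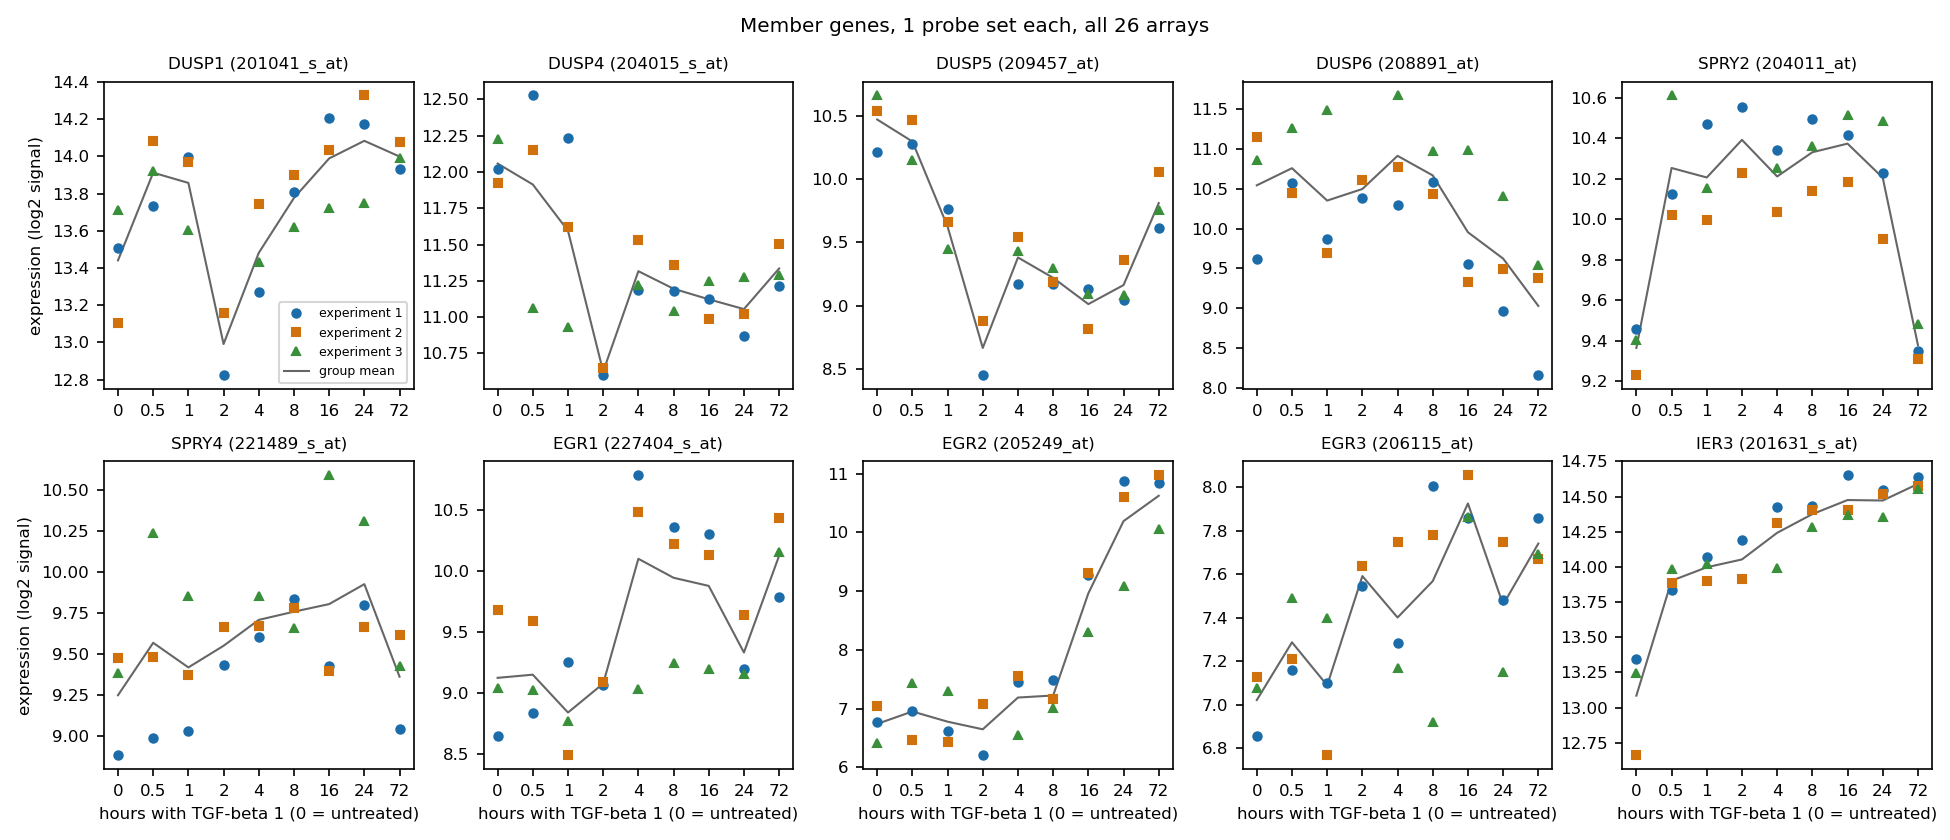
Level (log2 signal, vertical axis, own scale in each panel) of 1 probe set per member gene against hours with TGF-beta 1 (horizontal axis, times evenly spaced, 0 being untreated cells); symbols mark the experiment of each of the 26 arrays and the line joins group means. EGR2 reached 10.83, 10.97 and 10.07 at 72 h from 6.77, 7.04 and 6.41 in untreated cells, while SPRY2 returned at 72 h to 9.31 to 9.48.

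Levels are log2 values of the deposited signal, with 6.64 standing for a signal of zero and 5.64 for the lowest value the scale allows. Folds are on this scale, and because an offset of 100 sits inside the logarithm they understate the change of weak genes. A change is called when the adjusted p of limma, corrected over all 34765 probe sets that passed a filter on low values, is under 0.05. Of the 18 member probe sets 17 passed, and 220983_s_at of SPRY4 did not, with values between 5.64 and 7.47. Each change is given with its standard error (SE). The 8 comparisons share the same 3 untreated arrays, and the probe sets of a gene are not replicates of it.

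The arrays detected 28834 to 32875 probe sets each, and the number of arrays limits the precision. The TGF-beta targets SMAD7 and SKIL rose, by 2.63 ± 0.37 at 72 h and 2.35 ± 0.29 at 0.5 h (adjusted p = 5.83e-06 and 0.000136). The epithelial markers KRT8, KRT18, EPCAM and CDH1 were high in untreated cells, at 14.57, 15.21, 11.16 and 13.09. KRT19 was at 6.81, near zero signal, as were the alveolar type II markers NKX2-1 at 7.17 and SFTPB at 7.41, and the mean of the 4 type II markers, SFTPC and NAPSA among them, lay between 7.29 and 8.18 in every array. The mean of the 5 epithelial markers was 12.06 to 12.30 in untreated arrays and 10.56 to 10.73 at 72 h. The list did not fall as a whole. CDH1 and EPCAM were at 8.83 and 8.44 at 72 h, while KRT8, KRT18 and KRT19 were at 14.2, 14.9 and 6.83. The leukocyte, endothelial and fibroblast lists, 7 genes in all, had list means between 6.80 and 7.93 in every array. The actin 3′ to 5′ ratio given with the arrays, a sign of RNA quality, was 1.07 to 1.13 in untreated cells and 0.979 to 1.05 at 72 h. The part of these shifts in the results was not tested. In RNA of whole cultures, fewer cells of a kind and less RNA per cell cannot be told apart. Untreated replicate 2 deviated together with arrays of experiment 3 (mean correlation 0.24) rather than with those of its own number (-0.09), so where a member's call was lost without that array, the value is given. Untreated replicate 3 had no such preference (0.021 with experiment 2 and 0.016 with its own number).

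DUSP5, a nuclear phosphatase that acts on ERK, fell earliest. Its probe set 209457_at read 10.22, 10.54 and 10.66 in the untreated arrays, 9.76, 9.66 and 9.45 at 1 h, and 8.45 and 8.88 at 2 h. All treated arrays from 1 h on were below all untreated arrays. It then read 9.17, 9.54 and 9.43 at 4 h, 9.13, 8.82 and 9.09 at 16 h, and 9.61, 10.06 and 9.76 at 72 h, so the level recovered in part. DUSP5 fell by 0.84 ± 0.16 at 1 h (adjusted p = 0.0077) and by 1.80 ± 0.17 at 2 h, which is 3.49-fold lower (2.48e-06). At 4, 8, 16 and 24 h it was lower by 2.13, 2.38, 2.75 and 2.47-fold, and at 72 h by 1.58-fold (adjusted p = 0.00187). From 24 to 72 h it rose by 0.65 ± 0.16 (0.0125), a call lost without 24 h replicate 1 (0.0702) or 72 h replicate 2 (0.0942). The drop from 1 to 2 h, of 0.96 ± 0.17, missed the threshold at 0.162 and passed with the experiment as a block (0.0485). The rise from 2 to 4 h, 0.71 ± 0.17, likewise went from 0.0713 to 0.0377. Without untreated replicate 3 the 1 h call was lost (0.0682), and a fit on the untreated and 1 h arrays alone gave 0.165.

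DUSP4, another nuclear phosphatase induced by growth factors, had a course close to that of DUSP5 (correlation 0.961 over the 9 group means). Probe set 204015_s_at read 12.02, 11.92 and 12.23 in untreated cells, 12.53, 12.15 and 11.06 at 0.5 h, and 12.23, 11.62 and 10.93 at 1 h. The early arrays scattered widely, with experiment 3 the lowest at both times. At 2 h it read 10.60 and 10.65, the lowest of its 26 values, and at 24 h 10.87, 11.02 and 11.28. It fell by 1.43 ± 0.30 at 2 h (2.70-fold lower, adjusted p = 0.0097), then by 0.86, 0.93, 1.00 and 0.72 at the times 8, 16, 24 and 72 h (0.0275, 0.0112, 0.00652 and 0.0422). The second probe set, 204014_at, was called at 24 h alone, where it fell by 0.94 ± 0.34 (0.0426). At 2 h its change was -1.35 ± 0.38 (0.0658, and 0.0239 with the experiment as a block), and at 16 h -0.87 ± 0.34 (0.0639 and 0.0422). Without either 2 h array the 2 h call of 204015_s_at was lost (0.143 without replicate 1 and 0.097 without replicate 2). The 72 h call was lost without any 1 of its 6 arrays (0.0554 to 0.126), and the 8 h call without 8 h replicate 1 (0.0731) or 3 (0.0853) or untreated replicate 1 (0.0556) or 3 (0.096). For 204014_at, leaving out 24 h replicate 1, 2 or 3 gave 0.0977, 0.112 and 0.056, and untreated replicate 1 or 3 gave 0.112 and 0.149.

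DUSP6, the cytoplasmic ERK phosphatase that is widely read as an ERK output, was lower at 72 h on all 3 of its probe sets. Probe set 208893_s_at read 9.15, 10.66 and 10.41 in untreated cells and 7.0, 8.23 and 8.65 at 72 h, with no overlap between the groups. It fell by 2.11 ± 0.58 (4.33-fold lower, adjusted p = 0.00637), while 208891_at fell by 1.51 ± 0.51 (0.0242) and 208892_s_at by 1.19 ± 0.43 (0.0337). The 3 probe sets had nearly the same course (correlations of 0.985 to 0.995 over the 9 group means, which share all arrays), and a readthrough transcript of POC1B and DUSP6 overlaps the gene. None of them was called at an earlier time. Much of the spread lay between experiments: experiment 3 was the highest in 7 of the 8 groups with 3 arrays. The exception was the untreated group, where replicate 2, whose experiment number is in doubt, was the highest on all 3 probe sets. The experiment term passed for each probe set (adjusted p = 0.00196, 0.00271 and 0.00497). Across all probe sets tested that term passed for 11.5%, and among the members for DUSP6, SPRY2 (0.0128) and SPRY4 (0.0164), 5 of 17 probe sets. Within experiments as labelled the change of 208893_s_at at 72 h was -2.15, -2.43 and -1.76, lower in 3 of 3. With the experiment as a block the adjusted p at 72 h became 0.000121 for 208893_s_at, 0.0003 for 208891_at and 0.000914 for 208892_s_at. The block also brought calls at 24 h (0.0175, 0.0201 and 0.0379, in the same order) and at 16 h for 208893_s_at (-1.19 ± 0.58, 0.137 without and 0.0199 with the block). With untreated replicates 2 and 3 exchanged in the block, the adjusted p at 72 h was 4.8e-05, 8.34e-05 and 0.00027, again in that order. For 208893_s_at it was then 0.0108 at 24 h and 0.0124 at 16 h, and 208892_s_at was also called at 16 h (0.0306). At 16 h the change of 208893_s_at within experiments as labelled was -0.79, -2.69 and -0.09, and at 24 h -0.86, -1.60 and -1.15. Without 72 h replicate 1 the 72 h call was lost for all 3 probe sets (0.0521, 0.148 and 0.112). Without untreated replicate 2 or 3 it was lost for 208891_at (0.113 and 0.0834) and 208892_s_at (0.143 and 0.102), and for the latter also without 72 h replicate 2 (0.0719).

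**Figure D2:**
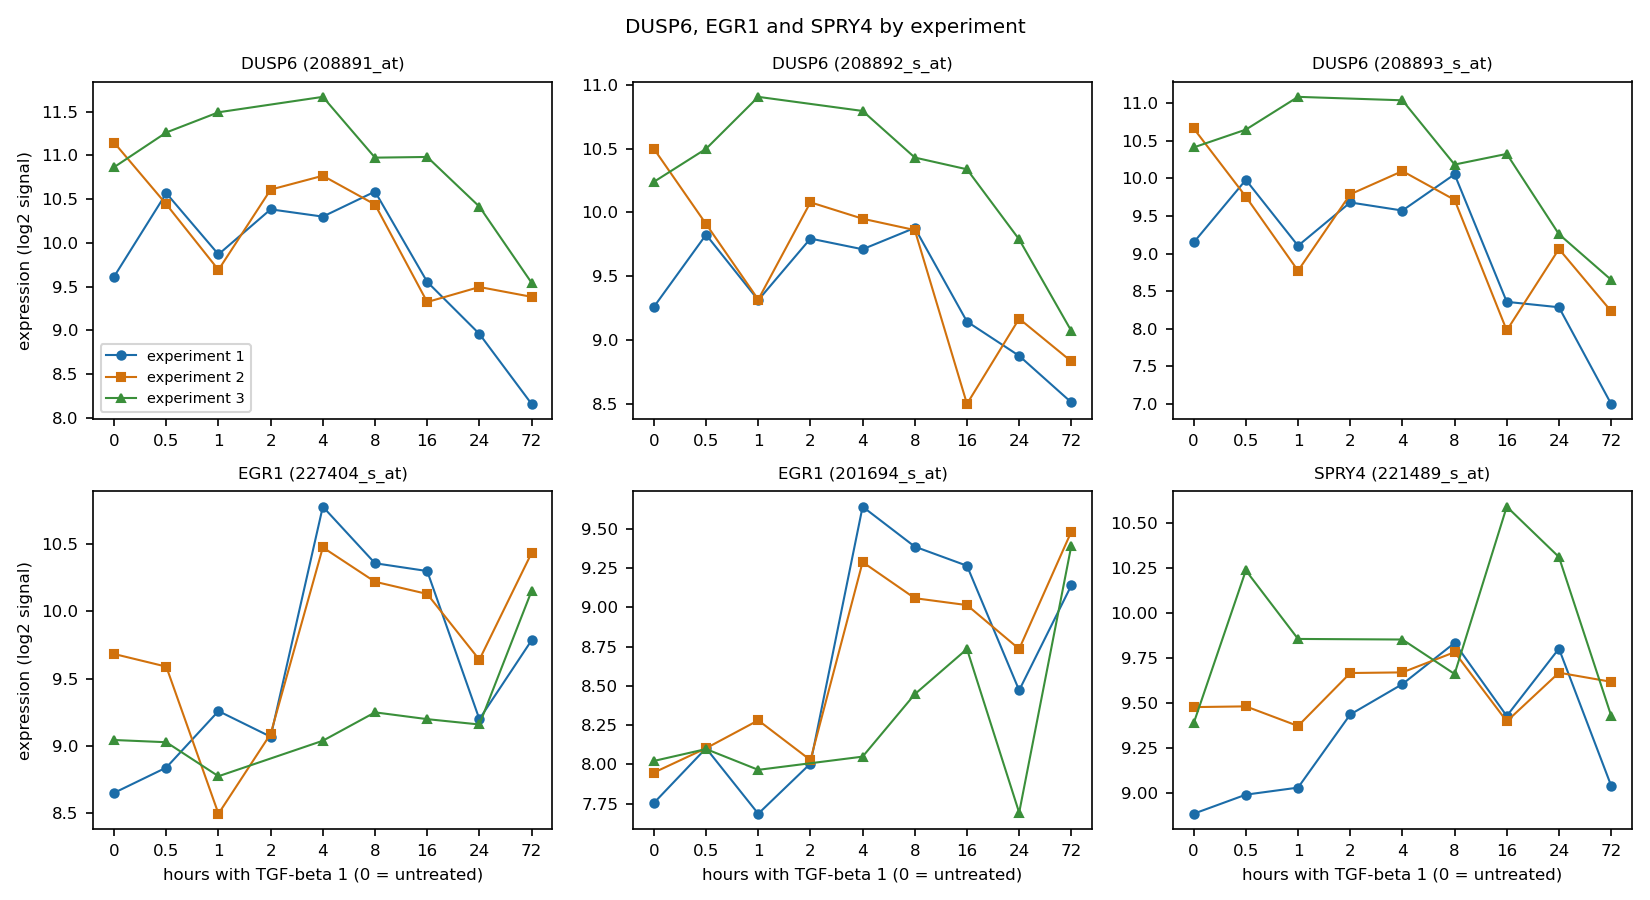
Level (log2 signal, vertical axis, own scale in each panel) of the 3 DUSP6 probe sets, 2 EGR1 probe sets and 1 SPRY4 probe set against hours with TGF-beta 1 (0 being untreated cells), with the arrays of each experiment joined by a line. In DUSP6 experiment 3 lies highest in 7 of the 8 groups with 3 arrays, the untreated group being the exception. In EGR1 227404_s_at experiment 3 stays at 9.04 at 4 h while the others reach 10.78 and 10.48.

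DUSP1 codes for a nuclear phosphatase that acts on p38, JNK and ERK and is itself an immediate early gene. Probe set 201041_s_at read 13.51, 13.10 and 13.71 in untreated cells, 12.82 and 13.16 at 2 h, and 14.17, 14.33 and 13.75 at 24 h. Each 24 h array was above each untreated array, the closest by a narrow margin. Probe set 201041_s_at rose by 0.55 ± 0.16 at 16 h (adjusted p = 0.0141), 0.64 ± 0.16 at 24 h (0.00422, 1.56-fold) and 0.56 ± 0.16 at 72 h (0.0104). Within experiments 1, 2 and 3 as labelled its change was 0.70, 0.93 and 0.01 at 16 h. At 24 h it was 0.67, 1.22 and 0.04, and at 72 h 0.42, 0.97 and 0.28. Probe set 201044_x_at, of a kind that can bind related transcripts, rose by 0.92 ± 0.23 at 16 h (0.00447) and by 1.13 ± 0.23 at 24 h (0.000634, 2.20-fold). Its 72 h change of 0.59 ± 0.23 gave 0.0577, and 0.0344 with the experiment as a block. The 2 h changes were -0.45 (0.28) and -0.58 (0.352), and the 0.5 h changes 0.47 (0.742) and 0.60 (0.913). The third probe set, 226578_s_at, had no call at any time, with changes between -0.32 and 0.09 and correlations of 0.15 and 0.215 with the other two over 9 group means. Without untreated replicate 2 the 201041_s_at calls at 16 h (0.111) and 72 h (0.0875) were lost, and without 16 h replicate 1 that at 16 h (0.0853). The 250 bases before the DUSP1 start, at chr5:172771196-172771445 on the minus strand of GRCh38.p14 (RefSeq), are shown because they hold the cAMP response element TGACGTCA, in capitals, beginning 125 bases before the start. This motif, read on both strands, occurs in 1.65% of 35116 windows of that length.
DUSP1: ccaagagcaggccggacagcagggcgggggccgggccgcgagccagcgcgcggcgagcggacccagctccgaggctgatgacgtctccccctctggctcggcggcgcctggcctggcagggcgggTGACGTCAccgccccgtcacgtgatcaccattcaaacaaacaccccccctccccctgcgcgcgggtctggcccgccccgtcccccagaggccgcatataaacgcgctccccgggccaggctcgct

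SPRY2 and SPRY4 code for inhibitors between receptor and RAF. The SPRY2 probe set 204011_at read 9.46, 9.23 and 9.41 in untreated cells and 10.13, 10.02 and 10.61 already at 0.5 h. From 0.5 to 24 h its 20 arrays lay between 9.90 and 10.61, all above every untreated array. At 72 h it read 9.35, 9.31 and 9.48, close to the untreated range. SPRY2 rose by 0.89 ± 0.17 at 0.5 h (1.85-fold, adjusted p = 0.0265), 1.03 ± 0.19 at 2 h (2.04-fold, 0.00318) and 1.01 ± 0.17 at 16 h (2.01-fold, 6.24e-05), with 0.84 to 0.97 at 1, 4, 8 and 24 h. The change at 72 h was 0.01 (0.961), and from 24 to 72 h SPRY2 fell by 0.83 ± 0.17 (0.0038). The call at 0.5 h was lost without 0.5 h replicate 3 (0.251) and without untreated replicate 1 (0.0573), 2 (0.174) or 3 (0.0945), and that at 1 h without 1 h replicate 1 (0.118) or untreated replicate 2 (0.098) or 3 (0.057). That at 2 h was lost without 2 h replicate 1 (0.138). In fits on the untreated arrays and one time alone SPRY2 gave 0.794 at 0.5 h and 0.16 at 1 h. SPRY4 had no call. Its probe set 221489_s_at read 8.88, 9.48 and 9.39 in untreated cells and 9.80, 9.67 and 10.31 at 24 h, where the groups did not overlap and the change was 0.68 ± 0.29 (0.0899, and 0.0187 with the experiment as a block).

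The EGR factors are zinc finger proteins that rise within the first hour after growth factors in many cells. No EGR probe set was called at 0.5, 1 or 2 h here. The EGR2 probe set 205249_at read 6.77, 7.04 and 6.41 in untreated cells and 7.49, 7.17 and 7.01 at 8 h, values near zero signal. It then read 9.28, 9.32 and 8.30 at 16 h, 10.88, 10.61 and 9.10 at 24 h and 10.83, 10.97 and 10.07 at 72 h. All 9 late arrays lay above all 17 earlier ones, and experiment 3 was the lowest of each late group. EGR2 rose by 2.22 ± 0.40 at 16 h (4.67-fold, adjusted p = 0.000166), 3.45 ± 0.40 at 24 h (10.9-fold, 4.54e-07) and 3.88 ± 0.40 at 72 h (14.8-fold, 6.81e-08). The step from 8 to 16 h was 1.74 ± 0.40 (0.0152), lost without 16 h replicate 1 (0.0785) or 2 (0.0888) or 8 h replicate 3 (0.0864). The 3 changes against untreated cells were called under all 20 alternatives run for each. Of these, 1 used a second deposited copy of the same values, and some normalized again values that were already quantile-normalized.

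EGR1, the best known of the family, rose less and unevenly. Probe set 201694_s_at read 7.75, 7.95 and 8.02 in untreated cells, 9.64, 9.29 and 8.05 at 4 h, 8.47, 8.73 and 7.69 at 24 h, and 9.14, 9.48 and 9.39 at 72 h. At 24 h the arrays overlapped the untreated ones, and at 4 h experiment 3 was just above the highest untreated array. It rose by 1.08, 1.06 and 1.10 (each ± 0.30) after 4, 8 and 16 h (adjusted p = 0.0282, 0.0158 and 0.00796) and by 1.43 ± 0.30 at 72 h (2.69-fold, 0.000664), while the change after 24 h was 0.39 (0.369). From 24 to 72 h it rose by 1.04 ± 0.30 (0.0371), which was lost without 24 h replicate 1 or 3 (0.076 and 0.177) or any 72 h array (0.0605 to 0.134). Probe set 227404_s_at was called at 72 h alone (1.00 ± 0.38, 0.0447). Its changes at 4, 8 and 16 h were 0.97, 0.82 and 0.75 (0.139, 0.15 and 0.15), and without replicate 3 of each time these gave 0.00812, 0.0477 and 0.0495. Probe set 201693_s_at had no call, with changes between -0.54 and 0.24, and its group means of 7.26 to 8.03 lay near zero signal. For 201694_s_at the 4 h call was lost without 4 h replicate 1 (0.204) or 2 (0.146) or untreated replicate 1 (0.0918), 2 (0.0631) or 3 (0.0554), and the 8 h call without 8 h replicate 1 (0.0996) or 2 (0.0554) or untreated replicate 1 (0.0555). The 72 h call of 227404_s_at was lost without 72 h replicate 2 (0.155) or 3 (0.097) or untreated replicate 1 (0.183) or 3 (0.102).

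EGR3, a family member known as an immediate early gene in neurons and lymphocytes, stayed close to zero signal. Probe set 206115_at read 6.86, 7.13 and 7.08 in untreated cells, 7.86, 8.06 and 7.86 at 16 h, and 7.86, 7.67 and 7.69 at 72 h. It rose by 0.90 ± 0.25 at 16 h (adjusted p = 0.00728) and 0.72 ± 0.25 at 72 h (0.0264), and the latter was lost without 72 h replicate 1 (0.0821), 2 (0.0504) or 3 (0.0534) or untreated replicate 1 (0.0884). At 8 h, where replicate 3 read 6.92 and the others 8.01 and 7.78, leaving it out gave 0.0112.

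The windows of 250 bases before the starts of EGR1 and EGR2 are shown because both hold the CArG box, in capitals, while their courses differ. That of EGR1 is chr5:138465229-138465478 on the plus strand and that of EGR2, the third of 3 RefSeq starts, is chr10:62816367-62816616 on the minus strand, both on GRCh38.p14. EGR1 has 2 CArG boxes, beginning 105 and 83 bases before the start, and EGR2 has 1, beginning 71 bases before it.
EGR1: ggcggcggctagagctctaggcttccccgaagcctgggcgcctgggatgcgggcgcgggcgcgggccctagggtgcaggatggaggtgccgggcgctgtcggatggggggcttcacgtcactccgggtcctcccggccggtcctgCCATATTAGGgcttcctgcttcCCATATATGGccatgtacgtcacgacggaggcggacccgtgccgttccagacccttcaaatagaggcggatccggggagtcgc
EGR2: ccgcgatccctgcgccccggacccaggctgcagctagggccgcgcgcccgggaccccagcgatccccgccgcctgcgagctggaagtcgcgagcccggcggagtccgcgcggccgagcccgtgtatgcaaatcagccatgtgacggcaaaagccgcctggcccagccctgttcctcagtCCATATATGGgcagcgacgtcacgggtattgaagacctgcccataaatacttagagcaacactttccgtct
The CArG box, searched on both strands, occurs in 1.16% of the 35116 windows. It was not found in the other 2 EGR2 windows or in those of DUSP1, DUSP6, SPRY2 and SPRY4. The EGR site GCGNGGGCG, which occurs in 8.41% of windows, was found at 1 place before EGR1, 1 before SPRY4 and 2 in 1 of the 3 SPRY2 windows. The AP-1 site TGANTCA (6.57% of windows) and the SMAD palindrome GTCTAGAC (0.182%) were found in no member window. DUSP4, DUSP5, EGR3 and IER3 were not searched. A match describes the letters in the window and not binding.

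IER3 codes for an immediate early protein that is a substrate of ERK and takes part in cell survival. Probe set 201631_s_at read 13.34, 12.66 and 13.25 in untreated cells, 13.84, 13.88 and 13.99 at 0.5 h, and 14.64, 14.58 and 14.55 at 72 h. All 23 treated arrays were above all untreated arrays, and untreated replicate 2 was the lowest of all. IER3 rose by 0.82 ± 0.13 at 0.5 h (1.76-fold, adjusted p = 0.0028), 1.16 ± 0.13 at 4 h (2.23-fold, 1.04e-05), 1.39 ± 0.13 at 16 h (2.62-fold) and 1.51 ± 0.13 at 72 h (2.84-fold, 3.12e-09). No call of IER3 was lost by leaving out 1 array, untreated replicate 2 included. In fits on the untreated arrays and one time alone, which have few arrays to estimate the spread, the calls at 0.5, 1 and 2 h were lost (0.662, 0.0912 and 0.0529).

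**Figure D3:**
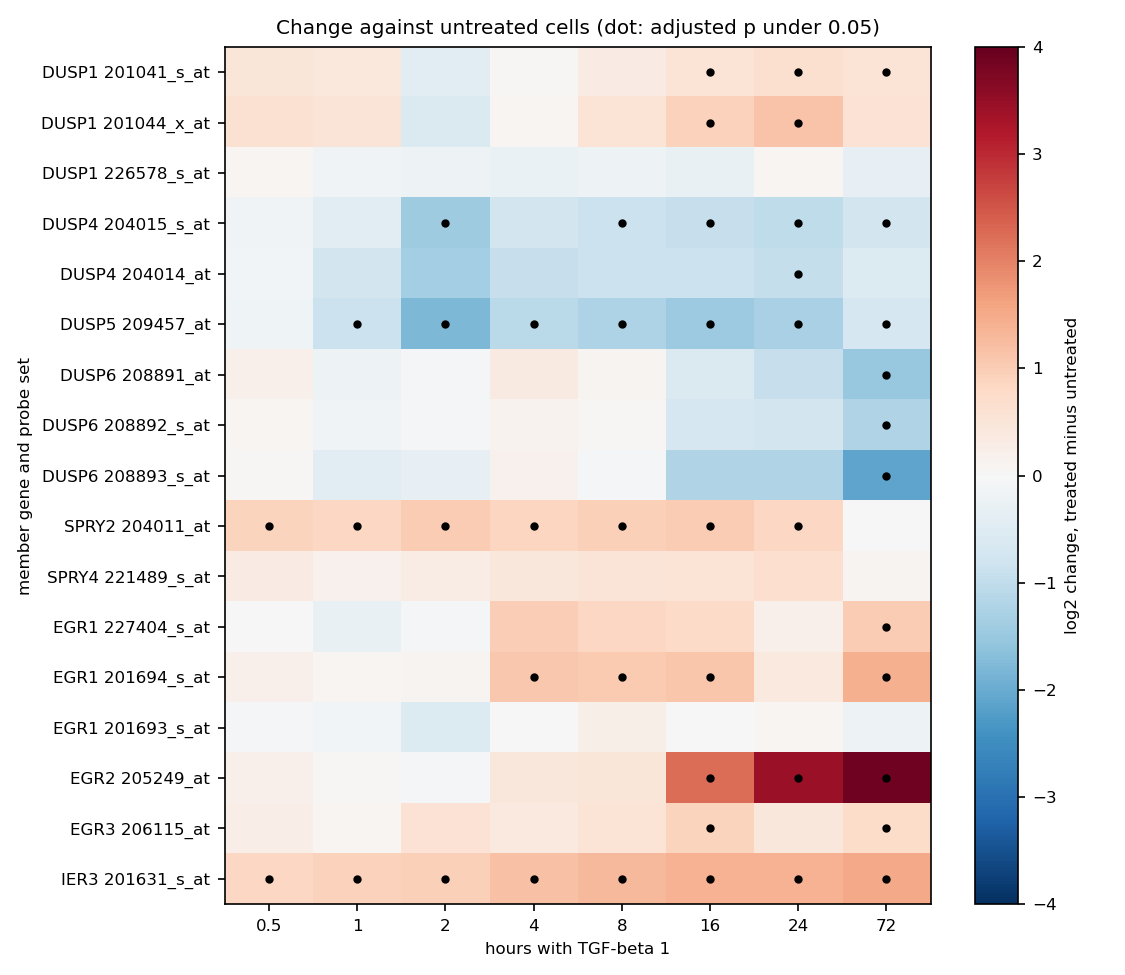
Change against untreated cells (log2, colour, red higher and blue lower) of the 17 member probe sets tested (vertical axis) at each time with TGF-beta 1 (horizontal axis, hours); a dot marks an adjusted p of limma under 0.05. IER3 has a dot at all 8 times, SPRY2 at all but 72 h, DUSP5 at all but 0.5 h, and EGR2 at 16, 24 and 72 h, where it reached 2.22, 3.45 and 3.88.

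Counted over the 17 member probe sets, few were called at early times, when few of all probe sets were called. At 0.5 h 2 were higher and 0 lower, where 0.129% of all probe sets tested were called. At 1 h 2 were higher and 1 lower (0.498% of all). The counts of higher and lower were 2 and 2 after 2 h (2.28%) and 3 and 1 after 4 h (6.79%). At 8 h 3 were higher and 2 lower, beside 18% of all probe sets. They were 7 and 2 after 16 h (27.5%), 5 and 3 after 24 h (28.5%) and 6 and 5 after 72 h (33.2%). The shares of members at 16 and 72 h, 9 and 11 of 17, stand beside backgrounds of 27.5% and 33.2%, and several of these probe sets belong to one gene. The 72 h count fell to between 6 and 8 of 17 when any 1 of its 6 arrays was left out. The median change of the members was 0.55 at 16 h and 0.01 at 72 h, against -0.01 and -0.00443 over all probe sets. With the experiment as a block the 24 h counts became 6 higher and 6 lower (32.8% of all). The F test over all 8 times called 10 of 17, belonging to DUSP1, DUSP4, DUSP5, DUSP6, SPRY2, EGR1, EGR2 and IER3, where it called 40.5% of all, and with the block it called 13 of 17 (46.8%). Over the 7 steps between consecutive times 4 calls were made among the members, against 1.75% of all pairs of probe set and step. They were the EGR2 rise from 8 to 16 h (3.26% of all probe sets in that step) and, from 24 to 72 h, DUSP5, EGR1 and SPRY2 (7.11%).

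The authors' deposited table selects probe sets with an unadjusted p under 0.001 and a change of over 2-fold, from a model with the experiment as a term. For DUSP5 the authors' deposited table selects 2, 4, 8, 16 and 24 h, with the 2 h level 3.52-fold lower. The authors' deposited table selects IER3 from 4 to 72 h, EGR2 at 16, 24 and 72 h (14.8-fold at 72 h), and SPRY2 at 2 and 16 h. The authors' deposited table also selects DUSP1 201044_x_at at 24 h, DUSP4 204015_s_at at 2 h, EGR1 201694_s_at at 72 h and the DUSP6 probe sets 208891_at and 208893_s_at at 72 h (2.85-fold and 4.33-fold lower). The whole of the authors' deposited table selects 0.115%, 0.23%, 0.66% and 1.17% of probe sets at 0.5, 1, 2 and 4 h, and 2.8%, 4.96%, 5.44% and 5.92% at the later times.

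Other genes of the pathway were taken from lists by role, with 1 probe set per gene. Among other MAPK phosphatases, DUSP10, which acts on JNK and p38, first fell by 1.27 ± 0.27 at 2 h (adjusted p = 0.0119, lost without either 2 h array, 0.135 and 0.131, or untreated replicate 2, 0.0672) and later rose, by 2.46 ± 0.25 at 72 h (3.77e-08). DUSP16, which acts on JNK, fell by 1.60 ± 0.22 at 24 h (3.82e-06), and DUSP8 rose by 0.70 ± 0.19 at 16 h (0.0074). DUSP2, DUSP7 and DUSP9 did not pass the filter, so at 72 h 1 of 3 was higher and 1 lower (37% of 14771 genes called). Among other receptor feedback inhibitors SPRY1 fell by 1.31 ± 0.22 at 4 h (0.000535) and 1.62 ± 0.22 at 16 h (5.66e-06). LRIG1, an inhibitor of ERBB receptors, fell by 1.43 ± 0.33 at 4 h (0.0079), and IL17RD, which damps FGF receptor signalling, rose by 0.78 ± 0.14 at 16 h (0.000177). SPRED1 fell by 0.38 ± 0.12 at 72 h (0.0124, and 0.0706 without 72 h replicate 2 or 0.063 without untreated replicate 3). At 72 h 1 of 6 tested was higher and 3 lower.

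The corepressors of EGR factors rose late, NAB2 by 1.07 ± 0.23 at 24 h (adjusted p = 0.000804) and NAB1 by 0.58 ± 0.14 at 72 h (0.00196). SRF, the serum response factor, rose by 0.64 ± 0.15 at 16 h (0.00205), and the ternary complex factor ELK3 by 1.93 ± 0.19 at 16 h (3.54e-08). The ELK3 rise began early. It was called at 2 h (1.03 ± 0.21, 0.00718, lost without either 2 h array) and also at 4 h (1.38) and 8 h (1.74). At 16 h 3 of 6 genes of this list were higher and 0 lower, beside 32.1% of all genes called. In the ERK cascade the 18 genes were split at 72 h, with 6 higher and 6 lower, beside 37% of all genes called. ARAF fell by 1.00 ± 0.12 at 72 h (adjusted p = 8.52e-07), the ERK gene MAPK3 fell by 0.96 ± 0.17 at 16 h (0.000146), and the adaptor SHC1 rose by 0.84 ± 0.07 at 16 h (adjusted p = 3.6e-09). In the JNK and p38 cascades 3 of 14 were higher and 2 lower at 72 h, a share near that 37%. MAP2K6, a kinase of p38, fell by 2.24 ± 0.27 at 24 h (6.61e-07), MAPK12, a p38 kinase, fell by 1.07 ± 0.19 at 24 h (0.000154), MAP3K7, which TGF-beta receptors activate, rose by 0.88 ± 0.14 at 72 h (2.31e-05) and the JNK gene MAPK8 rose by 0.58 ± 0.11 at 16 h (0.000282).

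Other transcripts known as ERK outputs also went both ways. At 24 h 3 of 10 were higher and 4 lower, where 33.6% of all genes were called. IER2, an immediate early gene, rose by 1.20 ± 0.16 at 0.5 h (adjusted p = 0.000348) and by 1.62 ± 0.16 at 24 h (4.04e-08). FOS, a partner in AP-1, fell by 2.99 ± 0.37 at 24 h (9.68e-07). The ETS factor ETV4 fell by 1.43 ± 0.17 at 72 h (7.34e-07), and PHLDA1 rose by 1.39 ± 0.33 at 72 h (0.00184).

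**Figure D4:**
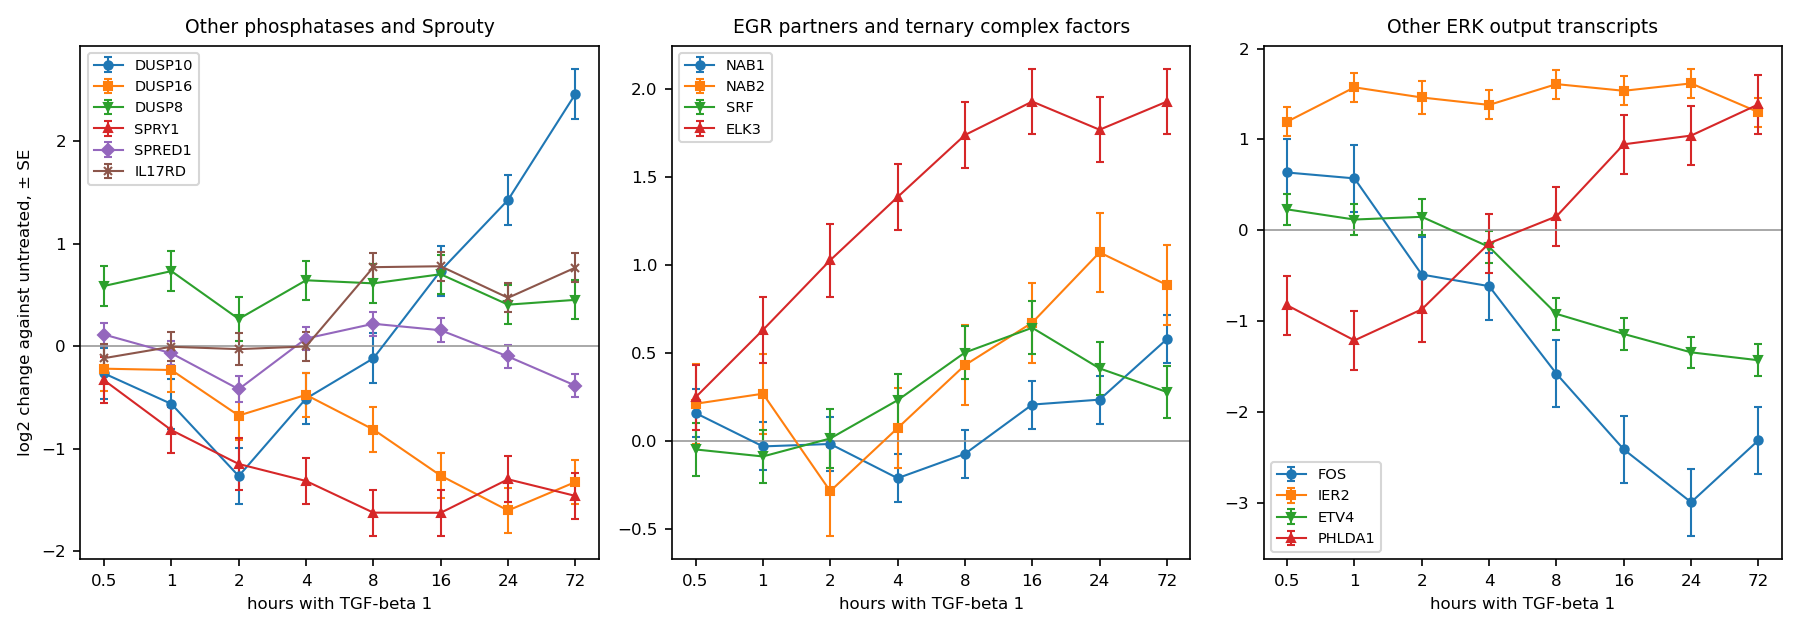
Change against untreated cells (log2, vertical axis, bars ± SE of the fit) of other MAPK phosphatases and receptor feedback inhibitors, of EGR corepressors with serum response and ternary complex factors, and of other ERK output transcripts, against hours with TGF-beta 1. DUSP10 reached 2.46 at 72 h, SPRY1 lay at -1.62 at 16 h, ELK3 reached 1.93 at 16 h and FOS fell to -2.99 at 24 h.

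Genes with a course like that of a member were sought by Pearson's r over the 9 group means, among 6830 genes that varied by the F test. The course of EGR2 was most like those of MMP2 (0.995), LPCAT2 (0.994) and SLAMF9 (0.992). That of DUSP5 was most like SPHK2 (0.966), DNAJB4 (0.965) and DUSP4 (0.961), and that of IER3 most like TCIM, JUN and SERTAD1 (0.967, 0.966 and 0.965). For SPRY2 the nearest were ZC3H12A (0.913), TRIM47 (0.911) and EFNA3 (0.903), and for DUSP1 SENP7 (0.939). All points of these correlations share the same 26 arrays.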

How the data were processed

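The deposited values are log10 expression for every probe set on each array. Per the file headers, the program readaffy took trimmed means (20 percent trimmed, scale constant 1000) of the differences between matched and mismatched probes, which were quantile-normalized to 1 array and transformed as log10(max(x+50,0)+50). They were multiplied into log2 units here. The deposited table also gives the authors' unadjusted p-values and linear fold ratios of each treated group over untreated cells (their model had terms for experiment and time), and a second deposited sheet gives the number of probe sets detected and the actin ratio per array.

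The 62 control probe sets were left out. A probe set was tested if, on 2 arrays or more, it lay above the median of the array, and 34765 remained. limma 3.58.1 (R 4.3.3) was fitted to all 26 arrays in 9 groups, without a block, with eBayes and an intensity trend (17 residual degrees of freedom), and p-values were adjusted by Benjamini-Hochberg over all probe sets tested. Members are matched by symbol, and all their probe sets are named. From each other list up to 4 genes with the largest called change were named, with 1 probe set per gene, the one with the highest mean, with those ending in _x_at taken last; some genes that this rule names are not reported here. The members and lists were chosen with earlier results of these data known. Gene names were updated by Entrez number for 38088 of 39321 single-gene probe sets. Promoter windows are RefSeq's on GRCh38.p14, with 1 window found for DUSP1, DUSP6, SPRY4 and EGR1 and 3 for SPRY2 and EGR2. On simulated data for 4 h against untreated, with 34765 probe sets, 80 of 100 changes of 1 log2 unit and 99 of 100 of 2 log2 units were recovered. The simulated noise was independent between arrays, without differences between experiments, and changes were put into the 4 h group alone. The rates therefore do not describe probe sets that differ between experiments, such as those of DUSP6.

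Replicate numbers are the experiment numbers of the labels, so equal numbers are labelled as a shared experiment. For untreated replicates 2 and 3 this is in doubt. The authors' array numbers run in the other order there, and untreated replicate 2 deviated with experiment 3 (mean correlation 0.24), not its own (-0.09). Untreated replicate 3 followed neither, with 0.021 for experiment 2 and 0.016 for experiment 3. Whether the 2 were exchanged cannot be settled from the labels. The median correlation of deviations from group means was 0.124 within and -0.06 between experiments. The experiment as a block, and the same block after exchanging untreated replicates 2 and 3 (chosen after seeing the data, since the authors' array numbers run in the other order), were alternatives. The labels call the experiments repeats and do not say how separate the cultures were, so p-values measure the spread between these arrays.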

Additional observations from a re-analysis of the deposited data

Results flagged for a closer look

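The level of 4 member probe sets in treated cells differed between neighbouring times, by limma's test of the difference itself over all probe sets. These steps compare treated groups with each other, so time in culture and treatment cannot be told apart in them. From 24 to 72 h DUSP5 209457_at changed by 0.65 (adjusted p = 0.0125), EGR1 201694_s_at by 1.04 (0.0371) and SPRY2 204011_at by -0.83 (0.0038). From 8 to 16 h EGR2 205249_at changed by 1.74 (0.0152). For SPRY2 the difference ended a rise seen in all 20 arrays from 0.5 to 24 h. No group had enough arrays for a test of single outlying arrays.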

How the results depend on the processing

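Counts of member probe sets called kept within 1.5 times their value in 204 comparisons with an alternative and moved further in 30, and no named change that was called reversed its sign. Among the alternatives, 1 used a second deposited copy of the same values, which differed by at most 5e-10. Its counts were bound to stay the same and are no sign of stability. Centring on the median and repeating the quantile normalization started from values already quantile-normalized, so these alternatives tested little. With an adjusted p under 0.01 the counts were 1, 3 and 5 at 0.5, 8 and 72 h and 1 over the steps. With at least a 2-fold change they were 0 at 0.5 and 1 h, 3 after 8 h, 5 after 16 and after 24 h, 7 after 72 h and 2 over the steps. With only the groups compared in the fit they were 0 at 0.5 h and 0 at 1 h, by construction with fewer arrays to estimate the spread. With the experiment as a replicate block, the pairing the labels give, 13 rather than 10 member probe sets passed the F test, 12 rather than 8 were called at 24 h and 6 rather than 4 over the steps, and no count moved by over 1.5 times. With untreated replicates 2 and 3 exchanged in the block the counts were 7 at 2 h, 8 at 8 h and 10 over the steps, and the cause was not tested. Apart from the F test and 24 h with the labelled block, the share of all probe sets called under an alternative is not given. The counts under the other alternatives, those without 1 array included, therefore cannot be set against a background.

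Leaving out 1 array gave 1 to 2 (0.5 h), 1 to 3 (1 h), 2 to 4 (2 h), 3 to 5 (4 h), 3 to 6 (8 h), 8 to 12 (16 h), 7 to 8 (24 h) and 6 to 8 (72 h), 8 to 13 by the F test and 2 to 7 over the steps. The count fell to 1 at 0.5 h without 0.5 h replicate 3 or any untreated array, to 1 at 1 h without untreated replicate 3, and to 2 at 2 h without 2 h replicate 1. It fell to 3 at 8 h without 8 h replicate 1 or untreated replicate 1, and at 72 h to 6 without 72 h replicate 1 and to 7 without 72 h replicate 2 or untreated replicate 2. Over the steps it was 7 without 1 h replicate 3 and 2 without 24 h replicate 1 or 72 h replicate 2. Robust eBayes, eBayes without the intensity trend and no filter on low values each ended the calls of DUSP4 204015_s_at at 72 h (limma adjusted p = 0.0544 to 0.0561), DUSP4 204014_at at 24 h (0.0543 to 0.0669) and EGR1 227404_s_at at 72 h (0.0576 to 0.065). Robust eBayes ended that of DUSP6 208892_s_at at 72 h (0.0559), and the other 2 settings the EGR1 201694_s_at step from 24 to 72 h (0.0501 and 0.0534). EGR1 201694_s_at missed the threshold at 4 h with only the groups compared (0.128). DUSP1 was called lower at 2 h in the exchanged block alone (0.0151 and 0.0431). EGR3 and untreated EGR2 lie near zero signal, where changes are understated.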
